A study of Mus musculus with 9 samples.

Results

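The genes described here belong to gp130 cytokine and Stat3 signalling: the ligands Il6, Lif and Cntf, the receptor chains Il6ra, Lifr, Osmr and Il6st, the transcription factor Stat3 and the inhibitor Socs3. Members were found on the microarray by the gene name in the scanner files, by an older name, or by the RefSeq identifier given for a probe. This gave 16 probes of 8 of the 9 genes, out of 41174 probes and 19505 genes with a current symbol, and no probe matched Lif by this rule. All 16 probes were above background in the DRG channel on all 9 arrays, so each of them was tested.

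Cytokines of the interleukin-6 family act through receptors that share gp130, the protein encoded by Il6st. A ligand-binding chain such as Il6ra, Lifr or Osmr joins gp130 on the cell surface, the Janus kinases bound to the receptor become active, and Stat3 is phosphorylated and enters the nucleus, where it raises transcription of targets that include Socs3, a feedback inhibitor of the same receptor. The pathway is known in dorsal root ganglia (DRG) for its part in the response of sensory neurons to injury of their axons. Phosphorylation of Stat3 and secretion of the ligands are not visible in RNA.

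The samples were total RNA from L3/L4 DRG of adult mice labelled cre.neg and jun.wt, so every group carried the same genotype labels. The 5 injured samples were taken 3 days after sciatic nerve transection and the 4 uninjured samples are the controls. The same day stands in the source label of the controls, and whether their DRG came from injured mice is not given in the sources used here. The methods give the same day, while the study's results text names a shorter interval after injury. The labels identify no animals, so p-values measure only the spread between these samples. Each array carried 1 DRG sample in Cy5 and a universal mouse reference RNA in Cy3, with no dye swap, and values below are log2 ratios of DRG over reference, so a level is always relative to that reference for the same probe. A DRG is a mixture of cells, and in such bulk RNA a change in the number of cells of a type and a change in RNA per cell cannot be told apart.

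The arrays lay on 3 slides. Slide 1 held uninjured 2 to 4, slide 2 held uninjured 1 with injured 1, 2 and 5, and slide 3 held injured 3 and 4, so slide and injury overlapped in large part. Median Cy5 intensity ran from 156 to 238. All 12 sensory neuron markers were above background on all arrays. Of them 1, Isl1, passed in limma at an adjusted p under 0.05, with a change of -0.49, beside 27.1% of all 16494 genes. Before adjustment 4 were under 0.05, all lower in injured DRG: Isl1, Snap25 with -0.27, Pou4f1 with -0.26 and Scn10a with -0.24. Arrays injured 2 and injured 4 stood apart in muscle markers, at 2.36 and 3.83 above the uninjured mean, against -0.10 to 0.45 on the other 7 arrays. The same 2 arrays were highest in neutrophil markers, at 2.88 and 1.62.

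To show the sequence in front of the genes that rose most and of the factor itself, the 250 bases before the RefSeq start site (build GRCm38.p6, 5′ to 3′ on the gene's strand) are given for Il6 (chr5:30012864-30013113, plus strand), Stat3 (chr11:100939541-100939790, minus strand) and Socs3 (chr11:117969367-117969616, minus strand). Capitals mark matches to 3 motifs, TTCNNNGAA (the Stat site), TTCNNNNGAA (its wider spacing) and TGANTCA (the AP-1 site), each of which reads the same on both strands.
Il6: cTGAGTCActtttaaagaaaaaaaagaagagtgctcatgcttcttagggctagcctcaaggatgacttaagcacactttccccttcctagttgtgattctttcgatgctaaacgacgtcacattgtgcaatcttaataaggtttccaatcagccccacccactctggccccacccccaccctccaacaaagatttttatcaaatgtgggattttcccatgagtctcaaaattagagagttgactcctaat
Stat3: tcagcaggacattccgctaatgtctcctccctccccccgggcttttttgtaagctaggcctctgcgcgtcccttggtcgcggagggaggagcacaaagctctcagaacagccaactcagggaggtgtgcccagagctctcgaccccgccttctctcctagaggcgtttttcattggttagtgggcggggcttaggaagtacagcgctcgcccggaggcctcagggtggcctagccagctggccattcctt
Socs3: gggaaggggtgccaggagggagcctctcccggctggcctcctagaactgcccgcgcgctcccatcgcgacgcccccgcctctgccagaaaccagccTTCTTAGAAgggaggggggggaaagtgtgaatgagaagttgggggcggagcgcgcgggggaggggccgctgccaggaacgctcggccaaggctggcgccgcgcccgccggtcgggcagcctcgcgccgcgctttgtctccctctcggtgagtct
The Socs3 window held 1 TTCNNNGAA, at positions -154 to -146 from the start site, and no other window of a member held one. No member window held TTCNNNNGAA. TGANTCA stood once in the Il6 window, at positions -249 to -243, and once each in those of Lif and Cntf. Of all 32851 promoter windows of this length, 7.02% held TTCNNNGAA, 5.85% TTCNNNNGAA and 6.75% TGANTCA, so these matches are descriptions of the sequence. The Stat3 window held none of the 3 motifs.

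After transection, 8 of the 16 member probes differed between injured and uninjured DRG by limma at an adjusted p under 0.05, and all 8 were higher in injured DRG. Among all 31186 probes tested, 23.5% passed, 10.5% higher and 13% lower. The probes that rose belonged to 6 genes: Il6, Socs3, both Stat3 probes, Il6st, 1 of 2 for Osmr and 2 of 5 for Lifr. Neither probe of Cntf nor of Il6ra passed. For 7 of the 16 the injured and uninjured arrays did not overlap, against 22.6% of all probes tested. In the reference channel, which held the same RNA on every array, none of the 16 passed in limma, 0 of them at an unadjusted p under 0.05, and 0.0802% of all probes passed.

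**Figure D1:**
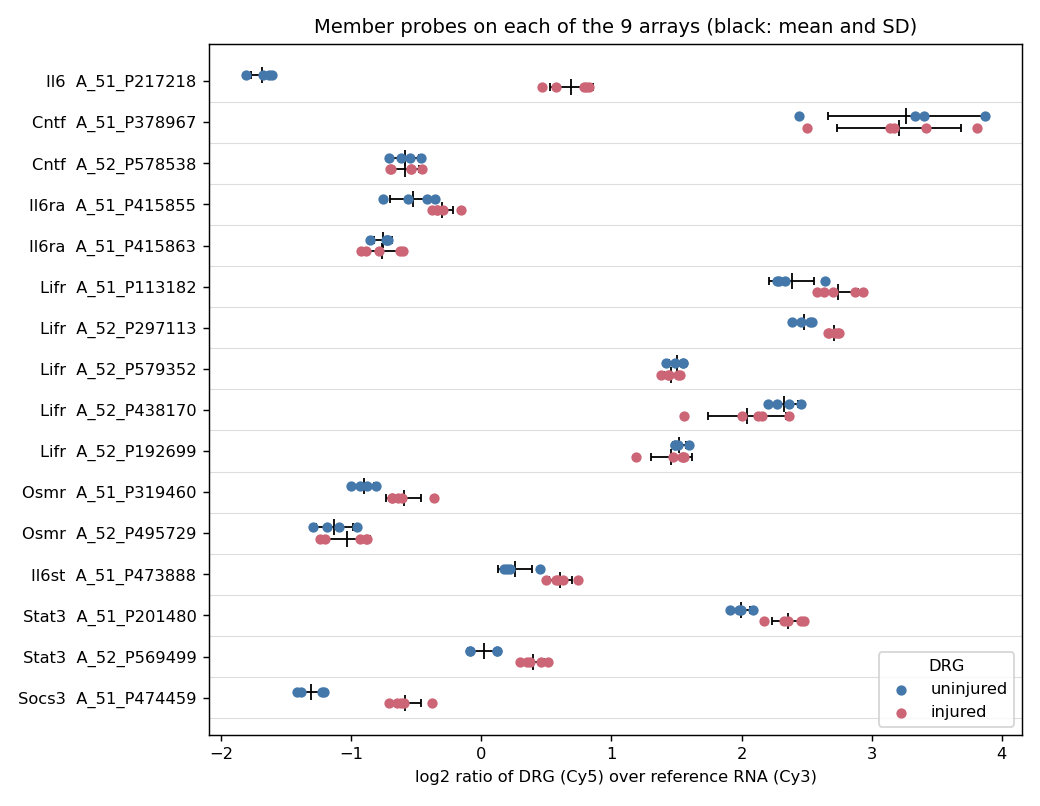
Log2 ratio of DRG over reference RNA for the 16 member probes, 1 row per probe, with uninjured (blue, n = 4) and injured (red, n = 5) arrays as points and the mean with SD in black. Il6 and Socs3 show the widest gaps between groups, and Cntf probe A_51_P378967 the widest spread within groups.

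The increases after Il6 and Socs3 were small, between 0.23 and 0.38 on the log2 scale, and their calls depended on the processing. With slide as a fixed block, in which the comparison rests on slide 2 alone (1 uninjured against 3 injured arrays), only Il6 and Socs3 passed. With median centring in place of loess within each array, again 2 of 16 passed, with the median of all probes moved from -0.00448 to -0.05, and these were also Il6 and Socs3. In both cases the changes of all 8 probes stayed above 0, from 0.15 to 2.48 with the slide block and from 0.16 to 2.30 with median centring. With injured 2 and injured 4 both left out, 6 of 16 passed.

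**Figure D2:**
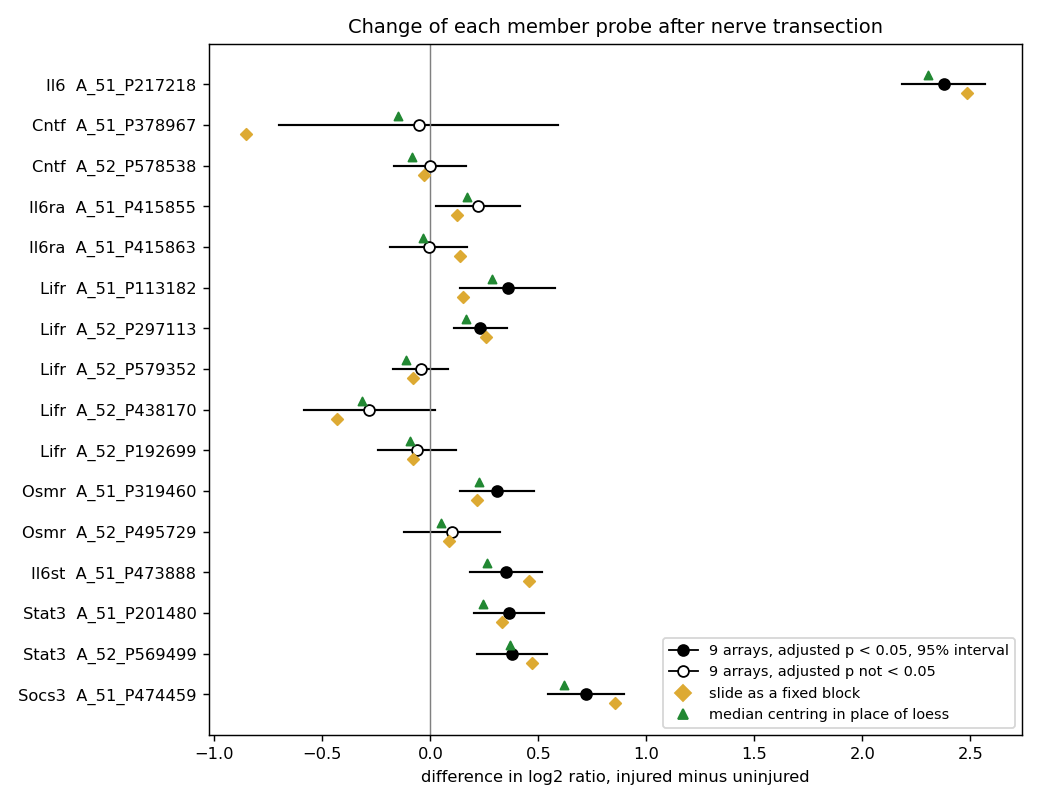
Difference in log2 ratio, injured minus uninjured, for each member probe from all 9 arrays (circles with 95% intervals, filled where the adjusted p was under 0.05), with slide as a fixed block (diamonds) and with median centring (triangles). The 8 filled probes lie above 0 under all 3 settings, while the diamonds and triangles of other probes fall on either side.

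Il6 encodes interleukin-6, the ligand of Il6ra and gp130. Its probe (A_51_P217218, chr5:29052734-29052793, build mm7) was read from 10 spots per array. Its log2 ratio was -1.68, -1.81, -1.64 and -1.61 on uninjured arrays 1 to 4. In the 5 injured samples, in order, it was 0.83, 0.81, 0.57, 0.47 and 0.79. Every injured array lay above every uninjured array, with Il6 under the reference in all uninjured and over it in all injured samples. The change was 2.38 (SE 0.088, limma adjusted p = 4.51e-08), a 5.19-fold increase, and the exact two-sided permutation p was 0.00794, the smallest that 126 assignments allow. The mean Cy5 signal rose from 84.5 to 428, both including the offset of 50 that compresses changes of dim probes. With Agilent's own log ratio, which adds no such offset, the change was 3.83. Within slide 2 it was 2.48 (limma adjusted p = 0.00897), where the single uninjured array is assumed to vary like the injured ones.

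Of the 10 macrophage markers, 4 rose, led by Fcgr1 with 1.06 and Aif1 with 0.90, and the mean of the list ran from -0.41 to 0.32 on uninjured and from 0.13 to 1.06 on injured arrays. Of the 7 neutrophil markers tested, 1 passed in limma, Mpo with 1.49, though 6 were under 0.05 before adjustment. The median change of this list was 1.48, and S100a8, which did not pass, gave 1.82 (SD 1.41 in injured samples). Of all 16494 genes read at their brightest probe, 27.1% passed, 12% higher and 15.1% lower. The neutrophil list ran from -0.45 to 0.55 on uninjured and from 0.49 to 2.88 on injured arrays. The ranges of both lists overlapped between the groups, for neutrophil markers only through uninjured 1 at 0.55 and injured 3 at 0.49. On injured arrays 1 to 5 the macrophage list stood at 0.13, 1.06, 0.40, 0.49 and 0.97, so that of the 3 arrays highest in Il6, injured 2 and 5 were the highest in these markers and injured 1 the lowest. The part of these cells in the change of Il6 was not tested. Without injured 2 and injured 4 the change of Il6 was 2.41 (limma adjusted p = 1.57e-06).

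Cntf encodes ciliary neurotrophic factor, which is known as a product of Schwann cells and acts through a receptor made of Cntfr, Lifr and gp130. Probe A_51_P378967 read 3.87, 2.44, 3.40 and 3.33 on uninjured arrays 1 to 4. The injured arrays 1 to 5 read 3.14, 3.42, 3.17, 3.81 and 2.50. Both groups spanned nearly the same range, with 1 low array in each. The change was -0.05 (SE 0.293, 95% interval -0.70 to 0.59, limma adjusted p = 0.922). Blocked by slide it was -0.85 (limma adjusted p = 0.33), outside that interval, in a comparison that rests on uninjured 1, the highest array of all. The SD was 0.597 in uninjured and 0.477 in injured samples, above that of the other 15 member probes, which lay between 0.0379 and 0.30.

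Across the arrays, probe A_51_P378967 varied with 5 Schwann cell markers, Mag, Pmp22, Prx, Mbp and Egr2. That relation was looked for after the values were seen, for this probe alone. The mean of these markers was 0.42, -0.51, 0.04 and 0.05 on uninjured arrays 1 to 4, relative to the uninjured mean. Injured arrays 1 to 5 stood at 0.12, 0.39, 0.33, 0.77 and -0.12. Arrays low in Cntf, uninjured 2 and injured 5, were the 2 lowest in the markers, and the 2 arrays highest in Cntf, uninjured 1 and injured 4, were the 2 highest. Over the 9 arrays Pearson's r was 0.86 (exact permutation p = 0.00206, adjusted p = 0.0206 over the 10 marker lists compared). Spearman's rho was 0.833 (exact permutation p = 0.00827) and did not pass the adjustment (adjusted p = 0.0827). Without uninjured 2 and injured 4, the arrays farthest from the median of the markers, r was 0.73 over 7 arrays. For the other 9 lists r lay between -0.40 and 0.44 over all arrays, with adjusted permutation p of at least 0.92 (exact). With the 2 farthest arrays of each list left out these ran from -0.72 for macrophage to 0.71 for red blood cell markers, so that the Schwann cell list no longer stood apart in size. None of the 5 Schwann cell markers passed limma's test between the groups, with 2 of them at an unadjusted p under 0.05 and 0 passing the methods' t-test after adjustment. A slide held at most 4 arrays, too few for a value within slides. The adjustment covered the lists and not the choice of probe A_51_P378967, which had the widest spread of the member probes. No correlation was computed for the other Cntf probe, A_52_P578538. It read -0.46 on uninjured 2 and -0.70 on injured 5, the arrays lowest in the markers. On uninjured 1 and injured 4, the highest, it read -0.62 and -0.54. The part of Schwann cells in these values was not tested.

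**Figure D3:**
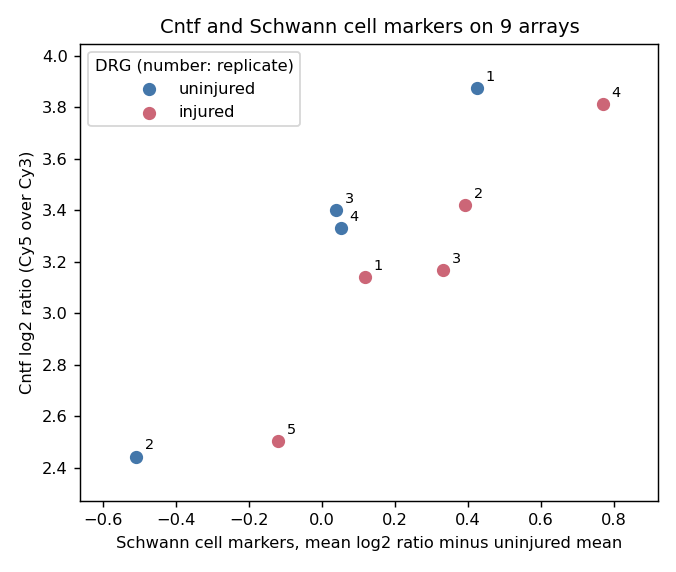
Log2 ratio of Cntf probe A_51_P378967 against the mean of the 5 Schwann cell markers, relative to the uninjured mean, on the 9 arrays, each point labelled with its replicate number. The points of both groups rise together from uninjured 2 at the lower left to injured 4 and uninjured 1 at the upper right.

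The other Cntf probe, A_52_P578538, read -0.71 to -0.46 in uninjured and -0.70 to -0.45 in injured samples, a change of 0.00 (95% interval -0.17 to 0.17, limma adjusted p = 0.994). Both probes carry the same RefSeq accession in the file, and this one lies among probes of the neighbouring gene Zfp91. Whether it reports Zfp91 transcripts was not tested. The 4 tested Zfp91 probes changed by -0.28 to -0.04, and 1 passed the test, A_52_P124097 with -0.28 (limma adjusted p = 0.015). A_52_P649755 gave -0.15 (limma adjusted p = 0.0706), and at both probes every injured array lay below every uninjured one. A_51_P127334 gave -0.18 and A_52_P116249 -0.04 (limma adjusted p = 0.085 and 0.756). Lif encodes leukemia inhibitory factor, the ligand of Lifr. One probe outside the rule (A_51_P306109) is only described in the file as leukemia inhibitory factor, and read -0.24 to 0.08 in uninjured and -0.07 to 0.05 in injured samples, a change of 0.10 (95% interval -0.06 to 0.26, limma adjusted p = 0.373).

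Il6st, the gene of the shared signalling chain gp130, rose. Its probe (A_51_P473888, chr13:109662276-109662335, mm7) read 0.19, 0.22, 0.45 and 0.17 on uninjured arrays 1 to 4. It read, on injured arrays 1 to 5, 0.63, 0.58, 0.50, 0.59 and 0.75. The groups did not overlap, though uninjured 3 came close to injured 3. The change was 0.35 (SE 0.0756, limma adjusted p = 0.00718), a 1.27-fold increase. Within slide 2 it was 0.46, and the call was lost (limma adjusted p = 0.102 with the slide as a block).

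Osmr, which pairs with gp130 to bind oncostatin M, rose at 1 of 2 probes. Probe A_51_P319460 (chr15:6640433-6640492, mm7) read -0.88, -0.81, -0.93 and -0.999 on uninjured arrays 1 to 4. The injured samples, in order, read -0.61, -0.68, -0.36, -0.64 and -0.68. All injured values lay above all uninjured ones, with injured 3 apart from the other 4. The change was 0.31 (SE 0.0781, limma adjusted p = 0.0156). Probe A_52_P495729 (chr15:6641790-6641849, mm7) gave 0.10 (95% interval -0.12 to 0.32, limma adjusted p = 0.523), with overlapping groups. The mean of both probes changed by 0.20 and did not pass (limma adjusted p = 0.089).

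Lifr, the chain that joins gp130 in the receptors for Lif and Cntf, had 5 probes, which did not move alike. Probes A_51_P113182 and A_52_P297113 sit side by side on chr15 (7017960-7018019 and 7017869-7017928, mm7) and both rose. A_52_P297113 read 2.45, 2.53, 2.38 and 2.54 on uninjured arrays 1 to 4. Readings on injured arrays 1 to 5 were 2.75, 2.72, 2.67, 2.74 and 2.67. The groups did not overlap and the change was 0.23 (SE 0.0563, limma adjusted p = 0.0129). A_51_P113182 ran from 2.27 to 2.64 in uninjured and from 2.58 to 2.93 in injured samples, a change of 0.36 (SE 0.0995, limma adjusted p = 0.0244). Here the groups overlapped, since uninjured 1 reached 2.64, and the call was lost without any one of uninjured 2, uninjured 3, uninjured 4 or injured 2, with adjusted p between 0.0561 and 0.0709.

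The other Lifr probes did not pass. A_52_P579352 changed by -0.05 (95% interval -0.17 to 0.08) and A_52_P192699 by -0.06 (95% interval -0.24 to 0.12), and both lie at lower coordinates, towards the start of the gene. A_52_P438170, listed under the older clone name A230075M04Rik at higher coordinates, changed by -0.28 (95% interval -0.59 to 0.02, limma adjusted p = 0.174) and ran from 1.56 on injured 5 to 2.46 on uninjured 1. The interval of A_52_P297113, 0.11 to 0.36, lay apart from that of A_52_P579352, and the difference between probes was not tested. With the 5 probes averaged, Lifr changed by 0.04 (limma adjusted p = 0.728). A direction for Lifr as a gene therefore turned on which probe was read.

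Il6ra encodes the chain that binds interleukin-6. Probe A_51_P415855 read -0.42, -0.36, -0.56 and -0.76 on uninjured arrays 1 to 4. Injured samples, in order, gave -0.38, -0.34, -0.30, -0.34 and -0.16. Uninjured 2 lay above injured 1, and the change of 0.22 (95% interval 0.03 to 0.41) did not pass over all probes (limma adjusted p = 0.0946). Taking slide as a random block gave 0.25 and a call (limma adjusted p = 0.0195), while the fixed block gave 0.12 and no call (limma adjusted p = 0.73). With the random block 10336 of all probes passed, beside 7342 without it, and the estimated correlation within slides was negative, at -0.20. Probe A_51_P415863 gave -0.01 (95% interval -0.19 to 0.17, limma adjusted p = 0.958). The changes of the 4 receptor chains at their brightest probes, 0.22 for Il6ra, 0.36 for Lifr, 0.31 for Osmr and 0.35 for Il6st, were compared in 6 pairs. Differences between the changes ran from -0.14 (Il6ra minus Lifr, SE 0.142) to 0.05 (Lifr minus Osmr, SE 0.135), and no pair passed (exact two-sided permutation over the arrays, adjusted p from 0.81 to 0.944).

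Stat3, the transcription factor at the end of the pathway, rose at both probes. A_51_P201480 (chr11:100997323-100997382, mm7), read from 10 spots per array, gave 1.996, 1.91, 1.98 and 2.09 on uninjured arrays 1 to 4. The 5 injured arrays, in order, gave 2.36, 2.45, 2.48, 2.32 and 2.18. The change was 0.36 (SE 0.0731, limma adjusted p = 0.00488), a 1.29-fold increase with no overlap, injured 5 being the lowest injured array. A_52_P569499, which is listed with a cDNA clone of the gene (chr11:100994187-100994246, mm7), gave -0.08, -0.09, 0.12 and 0.12 on uninjured arrays 1 to 4. Values on injured arrays 1 to 5 were 0.51, 0.35, 0.46, 0.37 and 0.29. Again no injured array fell among the uninjured ones, and the change was 0.38 (SE 0.0727, limma adjusted p = 0.00371). Blocked by slide, the changes were 0.33 and 0.47 and neither passed (limma adjusted p = 0.227 and 0.0892), and with median centring they were 0.24 and 0.37 (limma adjusted p = 0.386 and 0.0542).

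Socs3, the inhibitor that binds gp130 and its Janus kinases, had the largest change among the members after Il6. Its probe (A_51_P474459, chr11:118075211-118075270, mm7) read -1.38, -1.42, -1.23 and -1.21 on uninjured arrays 1 to 4. Across injured arrays 1 to 5 it read -0.60, -0.62, -0.65, -0.71 and -0.38. All injured arrays were higher, and injured 5 was the highest. The change was 0.72 (SE 0.0799, limma adjusted p = 0.000122), a 1.65-fold increase, with an exact two-sided permutation p of 0.00794. With slide as a fixed block it was 0.85 and passed (limma adjusted p = 0.0119), a comparison that again rests on 1 uninjured array. A probe outside the rule (A_52_P431770), described in the file as Socs3 but placed in the opposite orientation, changed by 0.16 (95% interval 0.04 to 0.28, limma adjusted p = 0.0587).

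Among other genes of the pathway, 21 of the 53 tested passed, 20 higher and 1 lower (1 probe per gene, the brightest). Over all 16494 genes read in this way, 27.1% passed, 12% higher and 15.1% lower. The lists stood at unequal levels. Of the 21 calls, 12 came from the 18 Stat3 targets, a list that held genes known from these data to rise. Of 7 other gp130 ligands and their partners none passed in limma (1 at an unadjusted p under 0.05, and 0 by the methods' t-test after adjustment), with a median change of -0.02, beside -0.00448 over all probes tested. The one under 0.05 before adjustment was Clcf1, a ligand of the Cntf receptor, with 0.20 (limma adjusted p = 0.127). Of 4 other receptor chains 1 rose, with a median of 0.05. It was Il31ra, the chain that binds interleukin-31, with 0.71 (limma adjusted p = 0.000299), from 2.74 ± 0.199 (SD, n = 4) to 3.45 ± 0.0764 (SD, n = 5). Cntfr, the third chain of the Cntf receptor, gave -0.18 (limma adjusted p = 0.399).

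Of 9 Janus kinases and other Stat factors 4 rose and none fell, with a median of 0.23. Over all genes at their brightest probe, 12% passed higher and 15.1% lower. The largest were Stat5a with 0.58 (limma adjusted p = 0.00488), Stat5b with 0.51 (limma adjusted p = 0.00147) and Jak2 with 0.42 (limma adjusted p = 0.00359), a kinase and factors that also serve growth hormone signalling. A second Jak2 probe gave -0.03 (limma adjusted p = 0.831), and 1 of 3 Stat5b probes did not pass. Jak1, the kinase most tied to gp130, gave -0.16 (limma adjusted p = 0.12).

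Of 15 inhibitors besides Socs3, 4 rose and none fell, with a median of 0.10. These are 26.7% of the list, near the share of all genes that passed in either direction. Cish, a Socs family member, rose by 1.06 (limma adjusted p = 3.39e-05), the phosphatase gene Ptpn1 by 0.81 (limma adjusted p = 2.02e-05) and Socs2 by 0.66 (limma adjusted p = 0.00172). For these 3 genes, named for the size of their rise, no injured array lay among the uninjured ones. Of all probes tested, 22.6% had groups that did not overlap. The Pias genes and Socs4 to Socs7 were among those that did not pass.

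Of 18 tested genes listed as Stat3 targets, 11 rose and 1 fell, with a median of 0.67, the highest of the 5 lists. Among all genes, 12% passed higher and 15.1% lower. The target list held genes known from these data to rise, so its direction is not independent evidence. Timp1, an inhibitor of matrix metalloproteinases, went from -4.19 ± 0.24 (SD, n = 4) to -1.81 ± 0.237 (SD, n = 5), a change of 2.38 (limma adjusted p = 1.18e-06), and all 3 of its probes rose, by 1.13 to 2.38. Gal, the neuropeptide galanin of injured sensory neurons, went from 3.21 ± 0.106 (SD, n = 4) to 4.97 ± 0.129 (SD, n = 5), a change of 1.76 (limma adjusted p = 2.46e-07). Cebpd, a transcription factor of the acute phase, rose by 1.45 (limma adjusted p = 0.000133). Fgg, the gamma chain of fibrinogen, was the one to fall, by 0.61 on the log2 scale (limma adjusted p = 0.0149). With the slides as a block 11 of the 53 pathway genes passed, and with median centring 12.

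**Figure D4:**
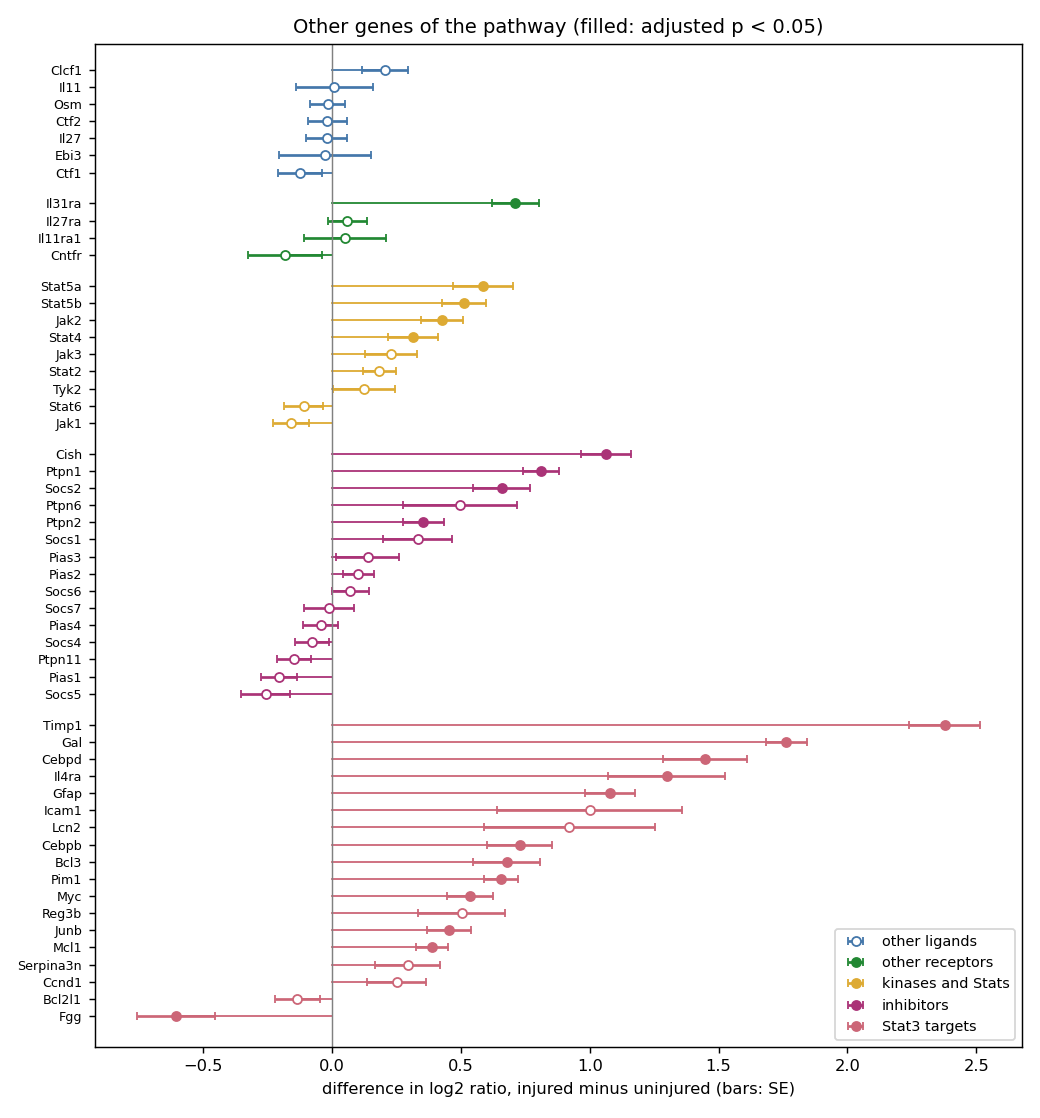
Difference in log2 ratio, injured minus uninjured, with SE, for the 53 tested pathway genes outside the members, grouped by list and filled where the adjusted p was under 0.05. The 20 filled points to the right of 0 and the 1 to the left lie in 4 of the 5 lists, with the widest changes among the Stat3 targets. That list held genes known from these data to rise.

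The mean over the 8 members with probes, each at its brightest probe, ran from -0.13 to 0.11 on uninjured and from 0.51 to 0.63 on injured arrays. Injured 2 and injured 4, the arrays high in muscle markers, stood at 0.63 and 0.59, beside 0.51 to 0.60 on injured 1, 3 and 5. Il6, with a change of 2.38, weighs most in this mean, and the median change of the 8 genes was 0.35. Cntf, with -0.05, and Il6ra, with 0.22, did not pass, and Lifr entered at a probe that changed by 0.36. The Stat3 target list ran from -0.12 to 0.09 and from 0.58 to 0.93. Neither the mean of the members nor the Stat3 target list overlapped between groups. The same held for kinases and Stats, at -0.03 to 0.05 on uninjured and 0.21 to 0.27 on injured arrays. It also held for inhibitors, at -0.04 to 0.05 and 0.17 to 0.29. Stat3 targets were highest on injured 5 and injured 2, at 0.93 and 0.89, and the same arrays were highest in macrophage markers, at 0.97 and 1.06, and in the red blood cell markers, at 1.22 and 1.19. These arrays were also the highest in T cell, satellite glia, fibroblast and endothelial markers. This did not hold for neutrophil, Schwann cell, sensory neuron and muscle markers. None of the 3 red blood cell markers tested passed in limma (2 at an unadjusted p under 0.05, and 0 by the methods' t-test after adjustment). Satellite glia markers ran from -0.11 to 0.11 and from 0.00 to 0.34, and 1 of 6 rose, Glul with 0.78. The part of these cell types in the results was not tested.

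**Figure D5:**
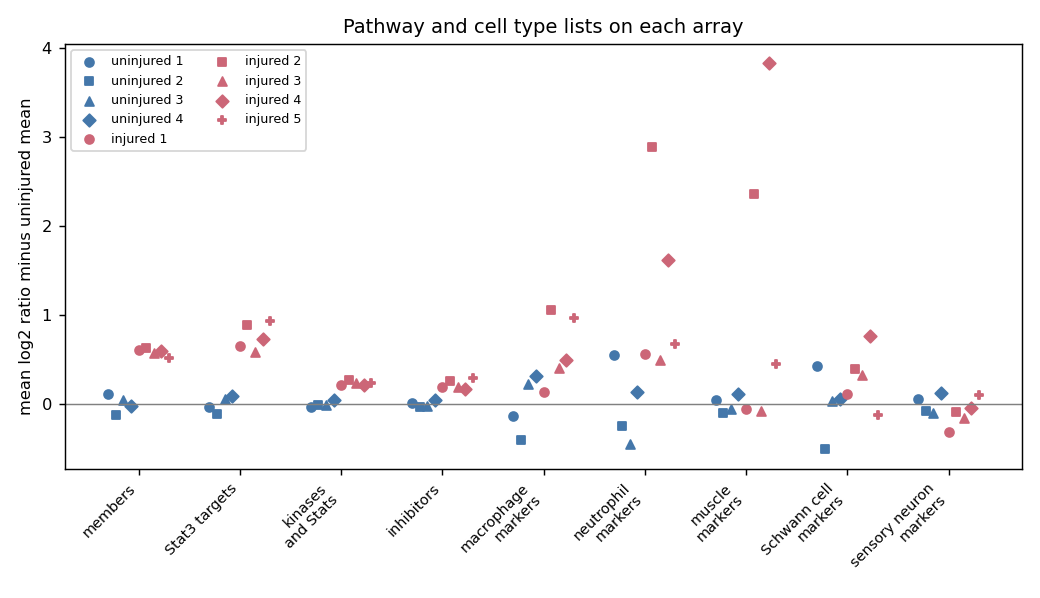
Mean log2 ratio of each gene list, relative to its uninjured mean, on each uninjured (blue) and injured (red) array, with 1 marker shape per replicate. Members, in whose mean Il6 weighs most, Stat3 targets, kinases and Stats, and inhibitors are separated between groups. Muscle markers are high on injured 2 and injured 4 alone.

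The 3 genes whose values lay nearest to those of each member over the 9 arrays, by the root mean square difference of log2 ratios relative to the uninjured mean, were found among 16494 genes. For Il6 they were Mcoln2 (difference 0.0989), Tubb6 (0.111) and Kif22 (0.158). For Socs3 they were Col18a1 (0.0644), Irak3 (0.0733) and Myo9b (0.0848). Those of Stat3 were Eapp, Dnajc7 and Mtf1, at 0.0509 to 0.0553, and those of Il6st were Grb10, Smad5 and Zkscan17, at 0.0451 to 0.0691. Lifr was nearest to Pip5k1b, Serpinb1b and Mfhas1, and Osmr to Chfr, Rnf11 and Plagl1, at up to 0.0935. The measure reflects the size of the change above all, so each neighbour changed by nearly as much as its member, Mcoln2 by 2.38 and Col18a1 by 0.72.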

How the data were processed

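DRG and reference RNA were measured on 2-colour Agilent arrays. The deposited scanner files hold intensities, the mean spot brightness and median local background of each channel, which per the file headers come from Feature Extraction 10.5.1.1. The log10 ratios in the same deposited files were made by that software with its own background and dye correction. The authors' own table holds log2 ratios of DRG to reference, background-corrected with background correction and a normalization inside each array, for which the submitters' processing notes name limma.

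Here limma 3.58.1 was run on the intensities in R 4.3.3. Spots flagged as outliers were left out (kept, they moved the Cy5 background fit of injured 2 to -358, against -16.7 to -12.6 on the other arrays), background was corrected by normexp (offset 50), arrays were normalized by loess, and repeated spots were averaged. Of 43379 spots that were not controls (41174 probes), 31186 had Cy5 above background on 4 arrays or more and were tested, injured against uninjured, with lmFit and eBayes of limma, adjusted over all of them by Benjamini-Hochberg and called at an adjusted p under 0.05. Single probes and differences between receptor chains had exact two-sided permutation tests over 126 assignments. The procedure was tested on simulated data. The number of arrays limits the precision.

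Members and gene lists were chosen with earlier results of these data known. Every member probe is reported, and from each pathway list up to 3 called genes with the highest rise and 3 with the deepest fall are named. Marker lists are given by counts, medians or ranges and leading genes. A few genes of these lists are not reported here and stand outside every count and mean. Jak1, Clcf1, Cntfr and the genes that did not pass were named after their values were seen. Probe positions are those of the files (build mm7), and no annotation of that build was used. Promoters are from RefSeq, and all 9 members matched. Python 3.11.15 and matplotlib 3.10.9 drew the figures. Alternatives are given under the dependence on processing.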

Additional observations from a re-analysis of the deposited data

Results flagged for a closer look

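In 3 of 32 groups of arrays, each a member probe in 1 group, a single array stood far from the others by Dixon's criterion, where chance gives about 1 in 20. Il6ra probe A_51_P415863 read -0.86 on uninjured 1, against -0.73 to -0.72 on uninjured 2 to 4. Lifr probe A_52_P192699 read 1.19 on injured 5, against 1.47 to 1.55 on the other injured arrays. Osmr probe A_51_P319460 read -0.36 on injured 3, against -0.68 to -0.61 on the other injured arrays. The first 2 belong to probes that did not pass the test. Without injured 3 the Osmr probe changed by 0.25 and still passed.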

How the results depend on the processing

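No paired analysis was possible because replicate numbers follow the order of the samples and the labels tie no uninjured to an injured sample. Of 31186 probes, 7342 passed with all arrays, 3518 with median centring, 1507 with slide as a fixed block, 134 within slide 2 and 4040 without injured 2 and 4, an alternative chosen after seeing the data. Among the 16 member probes the 8 calls became 9 with slide as a random block, which added Il6ra, 5 with Agilent's own ratio, 2 with median centring, 2 with the slide block, 1 within slide 2 and, with probes averaged, 4 of 8 genes. Of the pathway genes, 21 became 12, 11 and 3 under median centring, the slide block and slide 2. Leaving out 1 array at a time gave 5377 to 7481 probes, 7 to 8 member probes, 20 to 23 pathway genes and 0 member probes in the reference channel, which the slide block also left at 0. With slide as a random block, 10336 of all probes passed. The 8 member probes that rose kept their direction in all alternatives run. The cause of lost calls was not tested, apart from the fewer arrays that slide 2 leaves.

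Changes near 0 turned sign. Cntf probe A_51_P378967 gave 0.081 with slide as a random block, -0.853 with it as a fixed block and within slide 2, and -0.327 to 0.15 with 1 array left out. Cntf probe A_52_P578538 gave 0.000306 with outlier spots kept, 0.0226 with the authors' values, 0.017 with Cy5 alone, 0.0262 with array weights and -0.0431 to 0.0401 with 1 array left out. Il6ra probe A_51_P415863 gave 0.0631 with outlier spots kept, 0.139 with the slide block and within slide 2, and -0.0493 to 0.0316 with 1 array left out. Lifr probe A_52_P192699 gave -0.0835 to 0.00819 with 1 array left out. No receptor pair passed under any alternative run. Il6ra minus Lifr gave 0.0161 with outlier spots kept and 0.0656 with probes averaged, Il6ra minus Osmr 0.0371 with Agilent's ratio and 0.00975 with Cy5 alone, and Il6ra minus Il6st 0.00101 and 0.0284. Lifr minus Osmr gave -0.0597 with outlier spots kept and -0.164 with probes averaged, Lifr minus Il6st -0.0933 and -0.308, and Osmr minus Il6st 0.0187 with Cy5 alone. With 1 array left out, Il6ra minus Lifr ran from -0.214 to -0.0437, Il6ra minus Osmr from -0.147 to -0.0314, Il6ra minus Il6st from -0.205 to -0.0595, Lifr minus Osmr from -0.0196 to 0.134, Lifr minus Il6st from -0.0696 to 0.117 and Osmr minus Il6st from -0.125 to 0.0171.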

Other observations

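The relation of Cntf probe A_51_P378967 to the Schwann cell markers was computed again under 16 alternatives, 7 other ways to process the arrays and 9 with 1 array left out. Pearson's r lay between 0.774 (without uninjured 2) and 0.927, with exact permutation p of at most 0.0278. Both quantities are ratios to the same reference channel. With Cy5 alone, taken after normalization that uses both channels, r was 0.927. The part of the shared reference in this relation was not tested.

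By the methods' two-sided t-test on the same values, 9 of 16 member probes were under 0.05 before adjustment and 7 after Benjamini-Hochberg adjustment, beside 10468 and 6391 of all 31186 probes.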
